A study of Rattus norvegicus with 10 samples.

Results

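The genes described here carry the vasopressin to cAMP to protein kinase A signal, measured in cortex from the kidneys of PCK rats of both sexes. They were picked out by symbol, under a rule written with earlier results of these data known, as the protein-coding rows for the adenylyl cyclases (Adcy), phosphodiesterases (Pde), protein kinase A subunits (Prkac and Prkar), A-kinase anchoring proteins (Akap), the Epac genes Rapgef3 and Rapgef4, and Avpr1a, Avpr2, Gnas, Creb1 and Crem. That gave 65 rows of the 32545 in the table, 22293 of which are protein-coding. The 65 rows hold 64 symbols, since Gnas is listed under 2 identifiers. By role they are 2 receptors, 2 rows for the stimulatory G protein alpha subunit, 10 adenylyl cyclases, 23 phosphodiesterases, 2 catalytic and 4 regulatory subunits of protein kinase A, 18 anchors, 2 Epac genes and 2 genes of the CREB family. Pde4dip matched the symbol rule for phosphodiesterases but codes for an anchor that binds PDE4D, and it is counted with the anchors.

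The PCK rat is a model of autosomal recessive polycystic kidney disease that carries a mutation in Pkhd1, and both groups share it (strain PCK/CrljCrl-Pkhd1pck/Crl). There were 5 male and 5 female rats, given as 12 to 14 weeks old in the series text (the study's methods give a younger range), with 1 poly-A RNA-seq library per rat. The comparison asks which of these genes differ between the sexes. The study's methods describe the rats as littermates from separate litters with different parents. The labels do not give the litter of each rat, so the tests treat the rats as independent. Levels are FPKM, fragments per unit of gene length and sequencing depth, as deposited.

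Vasopressin binds its V2 receptor (Avpr2) on the basolateral side of principal cells and other distal tubule cells. The receptor acts through the stimulatory G protein to switch on adenylyl cyclase, and the cAMP formed releases the catalytic subunits of protein kinase A from their regulatory subunits or acts on Epac. Phosphodiesterases break cAMP down, anchors hold the kinase beside its substrates, and CREB carries the signal to transcription. In polycystic kidney disease cAMP is known for driving fluid secretion and cyst growth. A V2 receptor blocker is used in the dominant form of the disease. For the recessive form, modelled here, the study states that no drug is available and that the same blocker is in trials.

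Depth was 13912569 to 20285911 reads on genes per library, recovered from the FPKM. Female 2 had the largest share of mitochondrial reads (26.8%, against 14.3% to 19.1% in the other 9 libraries). Among the 49 members with a mean of at least 1 FPKM, male 5 and female 4 were each the lowest of the 10 libraries for 9 members, and female 2 was the highest for 10. Markers of the proximal tubule, the main epithelium of cortex, summed to 1246 to 2399 FPKM in males and 1249 to 2500 in females, with 1 of 5 called higher (Cubn) and 1 lower at an unadjusted p under 0.05 (Slc22a6, log2 fold change -0.53, adjusted p = 0.160, limma). Podocyte, endothelial and smooth muscle markers (4 each) had 0 called by limma, with 1 (Podxl) at an unadjusted p under 0.05, as had the adrenal cortex markers (0 at that p). The urothelial markers had 0 called and 0 at that p, but stood out in female 2, where their sum was 9.83 FPKM against at most 0.315 in any male, and Upk3a was 4.64 FPKM and listed at 0 in the other 9 libraries. Of 4 adipocyte markers 2 were tested and went opposite ways, Cidec being called lower in females and Adipoq having a log2 fold change of 0.74 (adjusted p = 0.0731, limma). Counts below are also given without male 5 and female 2, a choice made after the data were seen.

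Across the 65 members, levels ran from Prkar1a, at 127 ± 5.86 FPKM in males and 125 ± 15.3 in females (SD, n = 5 here and throughout), down to rows with hardly a read. A mean of at least 0.1 FPKM, the filter for testing, was reached by 58 members. The 7 below it were Adcy8, Akap3, Akap4, Akap6, Pde6a, Pde6b and Pde6c. Of the 58, Adcy10 and Akap14 had a mean under 0.1 FPKM in 1 sex. In 4 members, Akap4, Pde6a, Pde6b and Pde6g, no library held more than 3 reads, so that no difference was detectable at this depth. The within-sex coefficient of variation of the 49 members at 1 FPKM or more had a median of 12.8% in males and 14.9% in females, with a range of 2.09% to 42.3%.

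**Figure D1:**
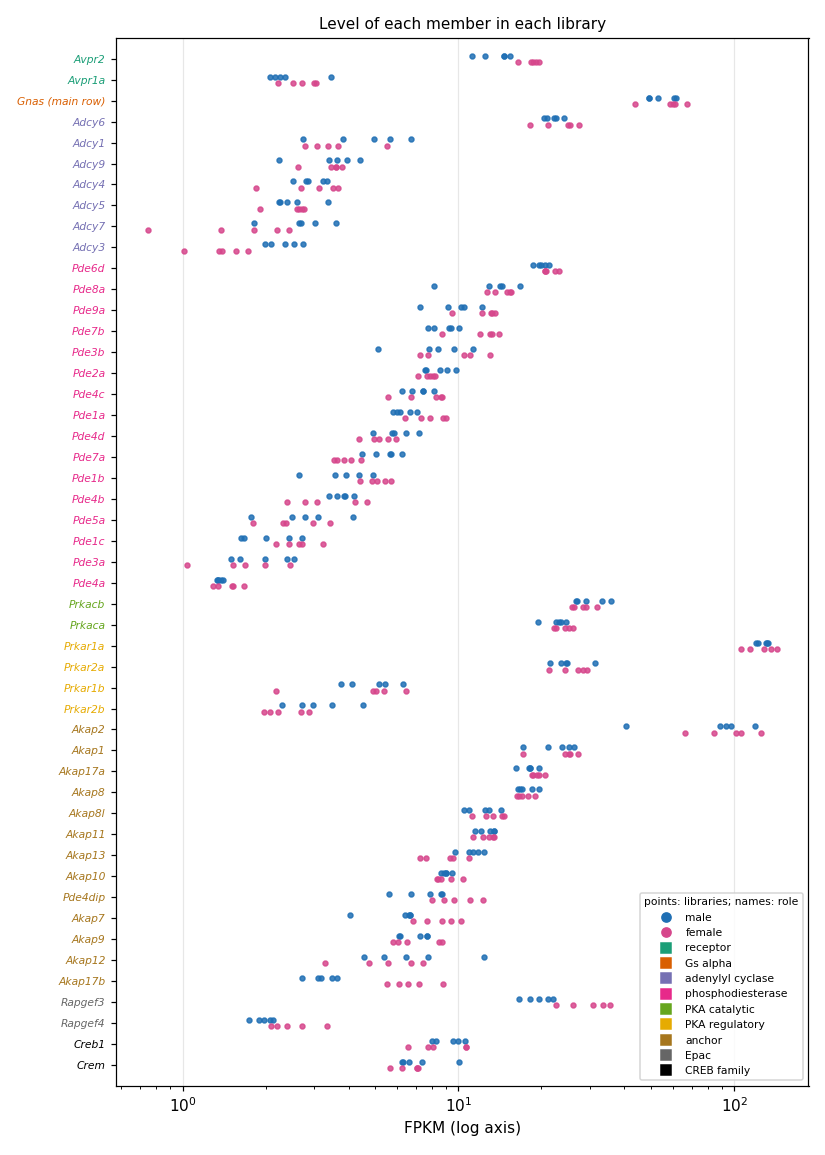
FPKM on a log axis of the 49 members with a mean of at least 1 FPKM, 1 point per library (5 male, 5 female), ordered by role and level. Prkar1a and Akap2 lie highest, and for most members the male and female points overlap.

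Most members of the pathway did not differ between the sexes beyond the spread, and a few at the receptor, cyclase, anchor and Epac steps did. At an adjusted p of at most 0.05 (limma over all 17631 genes tested, Benjamini-Hochberg), 3 of the 58 members were higher in females, Akap17b, Rapgef3 and Avpr2. That is 5.17% of the members tested, against a background of 1.26% of all genes. Adcy3 was lower in females, 1 member or 1.72%, against 1.14% of all genes. With a log2 fold change of at least 1 as well, which 1.32% of all genes passed, Akap17b was left. Without male 5 and female 2, 2 members were called higher (Akap17b and Rapgef3) and 0 lower (limma), where Avpr2 had an adjusted p of 0.0708 and Adcy3 of 0.118. With 1 library left out at a time, 1 to 3 members were called higher and 0 to 1 lower.

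Looser measures were counted as well. An unadjusted limma p under 0.05 was reached by 14 members (10 higher and 4 lower in females), 24.1% against 15.7% of all genes. An exact permutation test on FPKM (two-sided, all ways to split 10 libraries into 5 and 5, smallest possible p 0.00794) gave a p of at most 0.05 for 14 members, 24.1% against 14.8% of all genes, and for 7 members without male 5 and female 2. The ranges of the sexes did not overlap for 6 members, 10.3% against 5.10% of all genes. These were Avpr2, Akap17b, Akap7 and Rapgef3, higher in females, and Adcy3 and Pde7a, lower. That holds for the FPKM as deposited. Under scaling by total reads the ranges of Avpr2, Akap7, Rapgef3 and Pde7a overlapped. Without mitochondrial reads in the scaling those of Akap7 and Pde7a did. The members had a median log2 fold change (female over male) of 0.01 and all genes of -0.01, and the median size of the change was 0.19 and 0.17. For 53 of the 58 it was under 0.5. There were 30 members with a positive and 28 with a negative fold change.

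**Figure D2:**
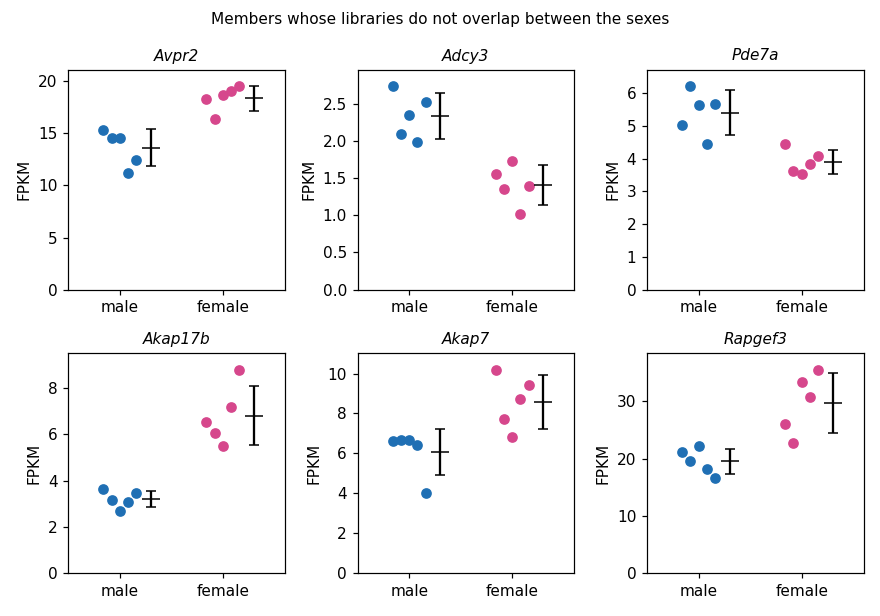
FPKM by library (points), with mean ± SD beside them, of the 6 members whose ranges do not overlap between 5 males and 5 females; each axis starts at 0. Avpr2, Akap17b, Akap7 and Rapgef3 lie higher in females, Adcy3 and Pde7a lower.

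Promoter windows of 300 bases (250 before to 50 after the start) from RefSeq (GRCr8) were matched by symbol for 50 of the 64 member symbols. This is under 80%, so a comparison of the members with other genes on promoter letters is void, and the counts are a description. The cAMP response element TGACGTCA, the site CREB binds, was in 1 member window, Akap17a, and in 1.91% of all 27457 windows. Its shorter core, TGACG on either strand, which the full element also holds, was in 15 of 50 member windows and in 22.0% of all. The letters GGTCA, the repeat unit of an estrogen response element, were in 19 member windows and 40.2% of all, and AGAACA, that of an androgen response element, in 7 and 20.1%, both strands counted. The element in Akap17a (chr12:21428436-21428475, minus strand, GRCr8) is shown with its 16 flanking bases on each side, in capitals.
Akap17a: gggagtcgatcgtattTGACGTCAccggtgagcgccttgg

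The windows of the 3 members called higher in females are shown whole, since these are the calls the results turn on. Capitals mark any match to the 3 short motifs on either strand. Avpr2 (chrX:156784889-156785188, plus strand, GRCr8) held 1 androgen motif, Rapgef3 (chr7:130776767-130777066, minus strand) 1 estrogen motif and Akap17b (chrX:120747201-120747500, minus strand) none, and none of them held the CREB core. A match of letters is not a site, and no match says nothing of the factors.
Avpr2: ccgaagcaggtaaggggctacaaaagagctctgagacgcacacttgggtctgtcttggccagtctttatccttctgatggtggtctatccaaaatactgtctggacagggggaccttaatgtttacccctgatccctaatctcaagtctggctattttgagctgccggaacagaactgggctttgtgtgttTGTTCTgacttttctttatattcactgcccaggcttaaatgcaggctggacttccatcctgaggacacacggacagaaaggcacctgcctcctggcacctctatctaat
Akap17b: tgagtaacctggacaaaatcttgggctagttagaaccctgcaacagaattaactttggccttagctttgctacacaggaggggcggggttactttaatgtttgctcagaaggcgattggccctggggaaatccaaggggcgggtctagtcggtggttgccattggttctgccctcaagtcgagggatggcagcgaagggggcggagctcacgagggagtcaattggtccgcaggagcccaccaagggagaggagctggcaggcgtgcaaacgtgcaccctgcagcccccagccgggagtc
Rapgef3: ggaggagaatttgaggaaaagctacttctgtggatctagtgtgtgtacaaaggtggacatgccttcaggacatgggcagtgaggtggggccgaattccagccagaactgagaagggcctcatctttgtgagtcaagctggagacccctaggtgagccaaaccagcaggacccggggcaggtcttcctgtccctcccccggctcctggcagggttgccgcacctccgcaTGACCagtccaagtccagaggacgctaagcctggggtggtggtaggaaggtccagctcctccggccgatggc

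The receptors stand at the start of the pathway. Avpr2 (ENSRNOG00000059862, Rnor_6.0 chrX:156889410-156891213, minus strand), was higher in females. Its FPKM was 15.35, 14.61, 14.57, 11.17 and 12.46 in males 1 to 5 and 18.31, 16.38, 18.65, 19.04 and 19.56 in females 1 to 5. The lowest female, female 2, lay above the highest male, male 1, so the groups did not overlap, and males 4 and 5 were lowest. Under scaling by total reads the groups did overlap. Means were 13.6 ± 1.75 and 18.4 ± 1.21, a log2 fold change of 0.44 (SE 0.10, adjusted p = 0.0469, limma, and exact permutation p = 0.00794). The call is close to the threshold, since leaving out 1 library at a time lost it in 8 of 10 fits (adjusted p 0.0337 to 0.126, kept without male 1 and without female 2). It was also lost in 5 of 10 other settings, without the filter (adjusted p = 0.0536, limma), under scaling by total reads (0.149) or without mitochondrial reads (0.0571), with the replicate block (0.155) and without male 5 and female 2. Avpr1a, the V1a receptor that signals through calcium, had 2.45 ± 0.563 FPKM in males and 2.69 ± 0.342 in females, with overlapping ranges (adjusted p = 0.722, limma).

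Bulk RNA does not tell fewer cells of a type from less RNA per cell. As a separate measure, Avpr2 was set against 7 markers of principal cells (Aqp2, Aqp3, Fxyd4, Hsd11b2, Gata3, Scnn1g and Scnn1b). Aqp2, Aqp3, Scnn1g and Scnn1b are also counted below as collecting duct effectors of the pathway. The ratio to these markers therefore cannot separate cell share from RNA per cell. All 7 had a higher mean in females, and 0 were called (limma, 2 at an unadjusted p under 0.05). Their summed level was 314 to 505 FPKM in males and 360 to 568 in females, and their mean log2 level was 4.87 in males and 5.22 in females, a difference of 0.35. Relative to that mean, log2 Avpr2 was -1.27, -0.89, -0.99, -1.29 and -1.05 in males 1 to 5 and -0.73, -1.22, -1.12, -1.10 and -0.90 in females 1 to 5, so the sexes overlapped. The difference on this relative scale was 0.08 (exact permutation p = 0.508, two-sided), against 0.44 for Avpr2 alone, and between 0.01 and 0.14 with any 1 library left out. Against single markers the difference ran from -0.13 (Aqp2) to 0.42 (Aqp3), the latter with an exact permutation p of 0.0238 (0.167 adjusted over the 7 markers). Aqp3 itself had a log2 fold change of 0.02.

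**Figure D3:**
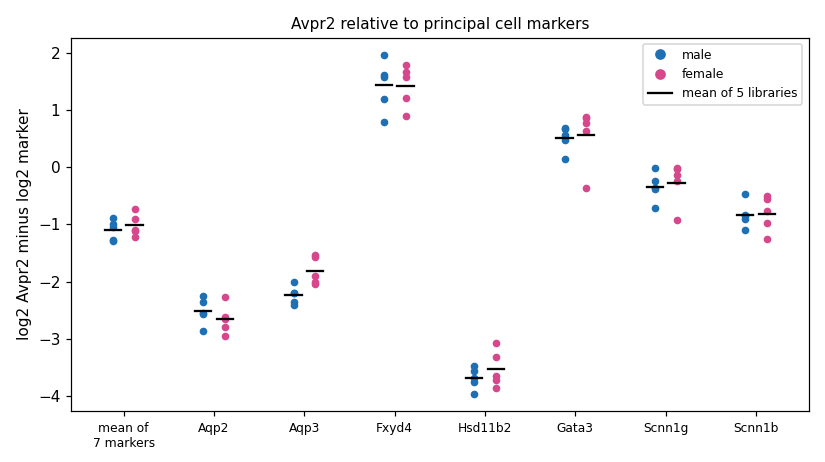
Difference of log2(FPKM + 0.1) between Avpr2 and the mean of 7 principal cell markers, then each marker, 1 point per library and a line for the mean of 5. Male and female points overlap for the mean of the markers (means -1.10 and -1.01), and against Aqp3 the female mean is higher while the points still overlap.

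Some markers of other distal segments were called higher in females, and their part in the difference in Avpr2 was not tested. All 5 intercalated cell markers were higher in females at an unadjusted p under 0.05, 1 of them called (Atp6v0d2), with sums of 130 to 203 FPKM in males and 191 to 267 in females. Of 4 thick ascending limb markers 1 was called higher (Kcnj1) and 2 were at an unadjusted p under 0.05, with sums of 1079 to 1616 in males and 1201 to 1819 in females. Of 4 distal convoluted tubule markers 3 were tested, all 3 higher at an unadjusted p under 0.05 and 1 called (Calb1), with sums of 205 to 332 in males and 314 to 546 in females, while Pvalb was listed at 0 throughout.

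Gnas codes for the stimulatory alpha subunit, and its main row (ENSRNOG00000047374) held 54.7 ± 6.05 FPKM in males and 58.1 ± 8.63 in females (adjusted p = 0.813, limma). Its other row (ENSRNOG00000025889) overlaps it on the same strand and had 4 to 23 reads per library, so how reads were divided between them is uncertain.

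Adenylyl cyclases make cAMP from ATP. Summed over the 10 genes they gave 42.0 ± 3.55 FPKM in males and 39.9 ± 4.46 in females. Adcy6, a calcium-inhibited cyclase of the collecting duct, supplied 52.7% ± 1.82 of that sum in males and 58.5% ± 4.68 in females. Its own level, 22.1 ± 1.47 against 23.4 ± 3.71 FPKM, did not differ beyond the spread (adjusted p = 0.821, limma). The other cyclases, Adcy1 at 4.77 and 3.68 FPKM in males and females, Adcy9 at 3.52 and 3.41, Adcy4 at 2.94 and 2.96 and Adcy5 at 2.57 and 2.52, were not called either.

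Adcy3 (ENSRNOG00000003999, Rnor_6.0 chr6:28571351-28650148, plus strand) is a calcium-responsive cyclase known from olfactory and other cilia, and it was the cyclase called. It had 2.74, 2.09, 2.35, 1.99 and 2.53 FPKM in males 1 to 5 and 1.56, 1.36, 1.73, 1.01 and 1.39 in females 1 to 5. Every male lay above every female, and female 4 was lowest. Means were 2.34 ± 0.311 and 1.41 ± 0.267, a log2 fold change of -0.70 (SE 0.16, adjusted p = 0.0480, limma). The call was lost in 9 of 10 fits with 1 library left out (adjusted p 0.0466 to 0.117, kept without female 3) and in 7 of 10 other settings (0.0520 to 0.118 in these 7). The gene overlaps Cenpo on the other strand, so with the strand setting of the counting not stated its reads are uncertain. Adcy7, a cyclase of blood and connective tissue cells among others, had 2.75 ± 0.649 and 1.71 ± 0.673 FPKM (log2 fold change -0.72, unadjusted p = 0.0310, adjusted p = 0.255, limma), with female 4 lowest at 0.747. Beside these stand the fibroblast markers, 4 of 4 lower in females at an unadjusted p under 0.05 and 0 called, with sums of 174 to 254 FPKM in males and 65.6 to 195 in females, and the leukocyte markers, 0 of 4 at that p, with sums of 572 to 989 and 495 to 1060. Their part in the cyclase values was not tested.

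Phosphodiesterases were the largest group, with 20 of 23 tested and 0 called by limma, 5 at an unadjusted p under 0.05 (4 higher in females and 1 lower). Pde6d, a chaperone of prenylated ciliary proteins and not an enzyme, had the highest level (20 ± 1.0 and 21.5 ± 1.17 FPKM in males and females). The catalytic genes summed to 91.6 ± 7.24 FPKM in males and 99.8 ± 6.32 in females. Pde8a, a cAMP-specific enzyme with high affinity, led them at 13.3 ± 3.19 and 14.4 ± 1.22.

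By substrate, the cAMP-specific genes (Pde4, Pde7 and Pde8) held 51.1% ± 1.83 of the catalytic FPKM in males and 48.9% ± 0.896 in females. The genes for enzymes that split both cAMP and cGMP (Pde1, Pde2, Pde3 and Pde10) held 34.9% ± 2.02 and 36.1% ± 0.438. The cGMP-specific genes (Pde5, Pde6 and Pde9) held 13.9% ± 1.04 and 15% ± 0.758. The make-up was thus nearly alike, with each share moving by under 3 percentage points.

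**Figure D4:**
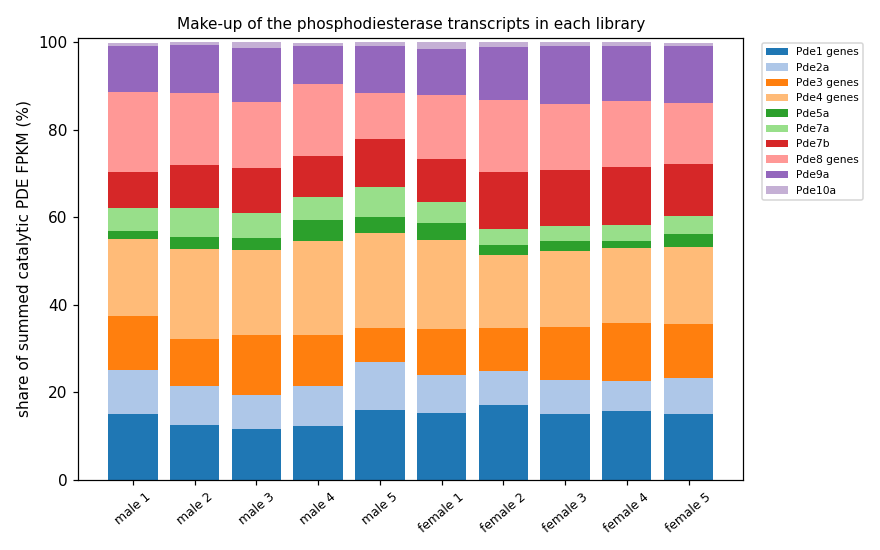
Share in percent of the summed FPKM of catalytic phosphodiesterase genes in each library, stacked by gene or gene family (the Pde6 genes, each under 0.1% in every library, are left out). The Pde4 genes, at 16.7% to 21.7%, are the largest block in most libraries, and the Pde7a band is thinner in females.

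The Pde7 pair had fold changes of opposite sign, and neither was called. Pde7a and Pde7b code for closely related cAMP-specific enzymes. Pde7a (ENSRNOG00000013048, Rnor_6.0 chr2:104045811-104134101, minus strand) had 5.03, 6.22, 5.65, 4.46 and 5.68 FPKM in males 1 to 5 and 4.45, 3.63, 3.55, 3.85 and 4.07 in females 1 to 5. The ranges did not overlap, though male 4 and female 1 nearly met. For Pde7a they did overlap under scaling by total reads and without mitochondrial reads in the scaling. Its log2 fold change was -0.45 (SE 0.11, adjusted p = 0.0687, limma, exact permutation p = 0.00794), and it was called in 1 of 20 alternative fits, without male 4 (adjusted p 0.0485 to 0.178 over the 20, limma). Pde7b (ENSRNOG00000013436) had 8.17, 9.37, 10.02, 7.77 and 9.27 FPKM in males 1 to 5 and 8.74, 12.99, 13.22, 14.00 and 11.98 in females 1 to 5. Female 1 lay among the males and the other 4 females above them, for a log2 fold change of 0.43 (SE 0.13, adjusted p = 0.127, limma). The ratio of Pde7a to Pde7b was 0.564 to 0.665 in males and 0.268 to 0.509 in females, female 1 being the highest of these. That ratio was formed after the values were seen and carries no test.

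The calcium- and calmodulin-activated Pde1 genes, which join calcium to cAMP, each had a higher mean in females. Pde1a had 6.33 ± 0.530 and 7.89 ± 1.07 FPKM in males and females (adjusted p = 0.197, limma), Pde1b had 3.87 ± 0.846 and 5.09 ± 0.507 (adjusted p = 0.228) and Pde1c had 2.08 ± 0.471 and 2.64 ± 0.393 (adjusted p = 0.360). None of the 3 was called, with 2 at an unadjusted p under 0.05. Summed, they gave 12.3 ± 1.75 FPKM in males and 15.6 ± 1.40 in females, and the libraries overlapped, male 1 (14.7) lying above female 1 (13.5). The cGMP-inhibited Pde3 genes, known for a cAMP pool tied to cyst growth, were Pde3b at 8.46 ± 2.30 and 9.94 ± 2.40 FPKM and Pde3a at 2.01 ± 0.456 and 1.74 ± 0.525. Pde4 genes, the family most often tied to V2 receptor signalling, summed to 18.4 ± 0.831 and 17.7 ± 0.584 FPKM, with Pde4c, found in cilia, at 7.21 ± 0.731 and 7.60 ± 1.40 and Pde4d at 6.03 ± 0.862 and 5.20 ± 0.595. Pde4b had 3.78 ± 0.297 and 3.42 ± 0.972 FPKM and Pde4a 1.36 ± 0.0284 and 1.47 ± 0.150, and no Pde3 or Pde4 gene was at an unadjusted p under 0.05 (limma).

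For protein kinase A itself no difference beyond the spread was seen. The catalytic subunits were Prkacb at 30.3 ± 4.0 and 28.2 ± 2.47 FPKM in males and females and Prkaca at 22.7 ± 1.93 and 24.1 ± 1.64. Type I regulatory subunit Prkar1a supplied 79.3% ± 2.63 of the regulatory FPKM in males and 79.0% ± 2.64 in females. Prkar2a followed at 25.1 ± 3.69 and 26.0 ± 3.25 FPKM, Prkar1b at 4.96 ± 1.03 and 4.79 ± 1.59, and Prkar2b at 3.2 ± 0.854 and 2.36 ± 0.391 (adjusted p = 0.329, limma). The sum of regulatory over catalytic transcripts was 3.06 ± 0.310 in males and 3.05 ± 0.482 in females. None of the 6 subunits was at an unadjusted p under 0.05 (limma).

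Anchors hold the kinase at membranes, mitochondria or the nucleus, and 15 of 18 were tested, with 1 called and 4 at an unadjusted p under 0.05 (Akap17b, Akap7 and Pde4dip higher in females, Akap13 lower). Akap13 had 11.2 ± 0.995 FPKM in males and 8.93 ± 1.5 in females (log2 fold change -0.33, adjusted p = 0.202, limma). Akap17b (ENSRNOG00000009746, Rnor_6.0 chrX:123217326-123254557, minus strand), a relative of the nuclear splicing-factor anchor Akap17a, had the lowest adjusted p of the members. Its FPKM was 3.62, 3.17, 2.71, 3.10 and 3.48 in males 1 to 5 and 6.54, 6.08, 5.49, 7.18 and 8.79 in females 1 to 5. The lowest female, female 3, was well above the highest male, and female 5 was highest. Means were 3.22 ± 0.354 and 6.82 ± 1.27, a log2 fold change of 1.05 (SE 0.14, adjusted p = 0.00205, limma), on 202 to 723 reads per library. It passed the threshold in all 20 alternative fits (adjusted p 0.00099 to 0.0121). Like Avpr2 it lies on the X chromosome, as do 2 further members (Akap14 and Akap4), and the 587 X-linked genes tested had a median log2 fold change of -0.01.

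Akap7, an anchor of the collecting duct known from work on aquaporin 2 and ion channels, had 6.61, 6.66, 6.68, 6.42 and 4.03 FPKM in males 1 to 5 and 10.19, 7.71, 6.83, 8.70 and 9.43 in females 1 to 5. The ranges did not overlap, but female 3 lay just above 4 of the males, and male 5 stood apart below. They did overlap under scaling by total reads (exact permutation p = 0.0238) and without mitochondrial reads in the scaling (exact permutation p = 0.0159). The log2 fold change was 0.50 (SE 0.16, adjusted p = 0.153, limma, exact permutation p = 0.00794), and it was called in 0 of 20 alternative fits (limma). The most abundant anchor, Akap2, had 87.7 ± 28.9 and 96.5 ± 22.1 FPKM in males and females, with 40.4 in male 5 and at least 66.5 elsewhere. Akap2 overlaps another protein-coding row on the same strand, so how reads were divided between them is uncertain. The mitochondrial anchor Akap1 had 22.6 ± 3.64 and 23.8 ± 3.87 FPKM, and the scaffold Akap12 7.29 ± 3.08 and 5.55 ± 1.64, male 4 being highest at 12.4. Neither they nor Akap2 were at an unadjusted p under 0.05.

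Epac proteins are exchange factors for the small G protein Rap1 that cAMP activates without the kinase, and both genes were at an unadjusted p under 0.05 on the female side. Rapgef3, coding for Epac1 (ENSRNOG00000059961, Rnor_6.0 chr7:139232251-139254551, minus strand), had 21.10, 19.60, 22.11, 18.24 and 16.60 FPKM in males 1 to 5 and 26.03, 22.65, 33.31, 30.69 and 35.45 in females 1 to 5. Female 2 was close to male 3, and the groups did not overlap. Under scaling by total reads they did overlap (exact permutation p = 0.0238). Means were 19.5 ± 2.20 and 29.6 ± 5.25, a log2 fold change of 0.59 (SE 0.13, adjusted p = 0.0414, limma). The call was lost in 9 of 10 fits with 1 library left out (adjusted p 0.0127 to 0.106) and kept without female 2, and it was lost in 3 of 10 other settings, without the filter (0.0526), under scaling by total reads (0.0985) and with the replicate block (0.123). Rapgef4, coding for Epac2, was a much lower transcript at 1.96 ± 0.152 and 2.55 ± 0.507 FPKM (log2 fold change 0.34, adjusted p = 0.275, limma). Together they summed to 21.5 ± 2.28 FPKM in males and 32.2 ± 5.02 in females.

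At the transcription step, Creb1 had 9.27 ± 1.09 and 8.74 ± 1.83 FPKM in males and females and Crem, a related factor with repressor isoforms, 7.32 ± 1.6 and 6.63 ± 0.660. Neither differed beyond the spread (adjusted p = 0.799 and 0.735, limma).

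**Figure D5:**
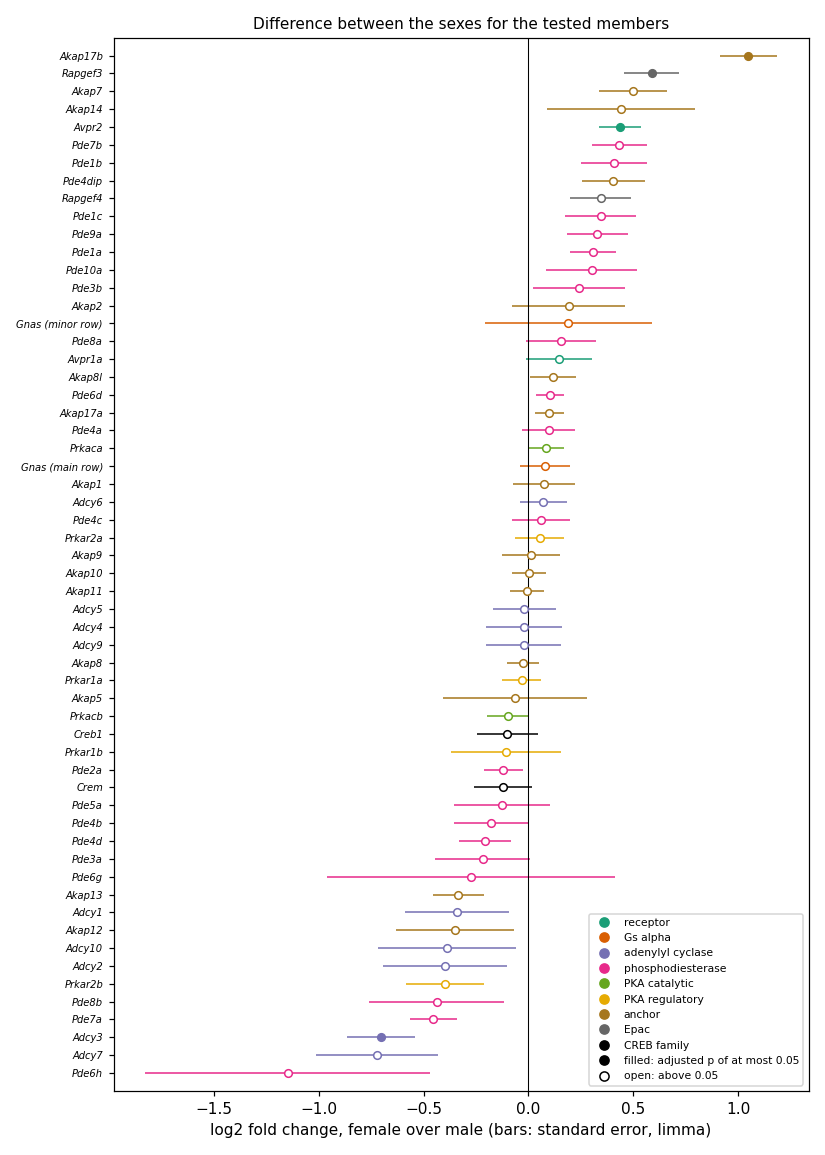
Log2 fold change (female over male) with its standard error from limma for the 58 tested members, coloured by role. Filled points, Akap17b, Rapgef3 and Avpr2 on the right and Adcy3 on the left, have an adjusted p of at most 0.05, and most others lie within 0.5 of 0.

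Of 56 further genes of the pathway, 55 rows were tested, with 0 called higher in females by limma (6 at an unadjusted p under 0.05, and 0 called by limma-voom) and 1 lower (12 at that p, and 2 called by limma-voom, Ptger3 and Sik1). Ptger3, the prostaglandin E receptor EP3, which couples to the inhibitory G protein and opposes vasopressin in the thick limb and collecting duct, was at 34.8 ± 4.43 FPKM in males and lower, at 22.9 ± 4.12, in females (log2 fold change -0.62, SE 0.14, adjusted p = 0.0435, limma). Males spanned 30.3 to 42.2 FPKM and females 16.2 to 27.4, without overlap, female 2 being lowest. The call was lost in 8 of 10 fits with 1 library left out (adjusted p 0.0296 to 0.105, kept without female 1 and without female 2). It was also lost in 2 of 10 other settings, without the filter and with the replicate number as a block (adjusted p = 0.105 for the block, limma).

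No other gene of these lists was called in the limma fit on all 10 libraries described here, but Sik1, a CREB target, was called lower with a filter at 1 FPKM (adjusted p = 0.0468, limma), under scaling by total reads (0.0405) and with the replicate block (0.0414). Of 5 receptors coupled to the inhibitory G protein, 4 were lower in females at an unadjusted p under 0.05 (Ptger3 included) and 1, the calcium-sensing receptor Casr, was higher. Of 8 CREB target genes, 4 were lower at that p (Fos, Nr4a1, Sik1 and Dusp1), and the list's median log2 fold change was -0.77. Fos ran from 19.0 to 57.8 FPKM in males and 10.8 to 45.4 in females (exact permutation p = 0.0952). Nr4a1 ran from 6.47 to 33.3 in males and 4.17 to 16.5 in females (exact permutation p = 0.0635). For Sik1 and Dusp1 the exact permutation p was 0.0159. Female 2 was the highest female for all 4. Of 8 collecting duct effectors, 3 were higher (Aqp2, Scnn1a and Scnn1b) and 1 lower (Cftr) at an unadjusted limma p under 0.05, with a median of 0.42. Aqp2 had 79.5 ± 18.8 FPKM in males and 117 ± 22.7 in females (adjusted p = 0.122, limma). Aqp2, Aqp3, Scnn1b and Scnn1g were also counted above as principal cell markers. Cftr was low, at 0.289 and 0.102 FPKM in males and females. The Slc14a2 row that was tested held 2.24 FPKM in female 2 and at most 0.0665 in any male. The 3 inhibitors of protein kinase A and the 7 CREB coactivators and relatives had 0 at an unadjusted p under 0.05 (limma). Of 9 G protein and arrestin partners 1 was lower, of 12 other receptors coupled to the stimulatory G protein 1 was higher and 2 were lower, and of 4 Epac targets and cAMP exporters 1 was higher. The same fit gave an unadjusted p under 0.05 for 15.7% of all genes.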

How the data were processed

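Poly-A RNA-seq was done on kidney cortex, with 1 library for each of 5 male and 5 female PCK rats, and samples were grouped by the sex in the labels. The tissue is labelled kidney, and cortex comes from the study's methods. The submitters' processing notes name fastp, HISAT2 2.0.5, StringTie 1.3.3b and featureCounts 1.5.0-p3. Reads were mapped to Rnor_6.0, and the authors deposited 1 table of FPKM. Whether counting used strand is not given in the sources used here. The study's own DESeq2 test on its counts was not used. No per-sample column was left out (0).

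Read counts were recovered from the FPKM and the gene lengths, and 100% of values came out whole (tolerance 0.01), giving 13912569 to 20285911 reads on genes per library. The FPKM were already on a median-ratio scale (factor 1.01 in all 10 libraries). FPKM are not counts, so limma 3.58.1 (lmFit, eBayes with trend, R 4.3.3) was run on log2(FPKM + 0.1) over genes whose mean reached 0.1 FPKM. P-values were adjusted by Benjamini-Hochberg over all 17631 genes tested, and a gene was called at 0.05. Fold changes are on the log2(FPKM + 0.1) scale, which understates changes of low genes. Single members had an exact permutation test, two-sided, run in Python 3.11.15 (scipy 1.17.1, numpy 2.4.6, pandas 2.3.3). The scripts were tested on simulated data.

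The members, gene lists and marker lists were chosen with earlier results of these data known. The text names every member called or with ranges apart, a list of core members, the highest member of each family and any other pathway gene called. Adcy1, Pde1b, Pde7b, Pde4dip, Akap13, Akap17a and low or X-linked members were named outside that rule, as were some other pathway genes and markers. Alternatives were pseudocounts of 1 and 0.01, no filter, a mean of 1 FPKM, scaling by total reads or without mitochondrial reads, quantile normalization, limma-voom on the recovered reads, the replicate number as a block and each library left out. Leaving out male 5 and female 2 together was added after seeing the data.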

Additional observations from a re-analysis of the deposited data

Results flagged for a closer look

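In 80 groups of 5 libraries (38 named members and other measures in each sex), 5 held a library far from the other 4, a gap of over 0.71 of the group's range (Dixon's test), where chance gives about 1 in 20 groups. Akap7 in male 5 was 4.03 FPKM, against 6.42 to 6.68 in the other males. Akap1 in female 2 was 17.2 FPKM, against 24.3 to 27.1 in the other females. Adcy5 in female 1 was 1.90 FPKM, against 2.59 to 2.76. On the high side, Avpr1a in male 1 was 3.44 FPKM, against 2.07 to 2.35, and Pde10a in male 3 was 1.13 FPKM, against 0.592 to 0.700.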

How the results depend on the processing

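For Avpr2, Adcy3, Pde7a, Akap7, Akap17b, Rapgef3 and Ptger3, the genes refitted one by one, the fold change kept its sign under every alternative run. The members' median log2 fold change, 0.01, became -0.07 under scaling by total reads and -0.02 without mitochondrial reads in the scaling, where the median of all genes, -0.01, became -0.08 and -0.03. The 3 members called higher in females became 1 without the filter, under scaling by total reads and with the replicate block, 2 without mitochondrial reads in the scaling and without male 5 and female 2 (Avpr2 being lost in both), and 1 to 3 with 1 library left out. Akap17b was called in each of these. The 1 member called lower became 0 with a pseudocount of 0.01, without the filter, with a filter at 1 FPKM, under scaling by total reads or without mitochondrial reads, with the replicate block and without male 5 and female 2 together, and 0 to 1 with 1 library left out. The 14 members at an exact permutation p of at most 0.05 became 9 without mitochondrial reads in the scaling, 7 without male 5 and female 2, and 10 to 16 with 1 library left out.

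Among the other pathway genes, the 0 called higher became 0 to 2 with 1 library left out (2 without male 1, Aqp2 and Scnn1a, when 0 were called lower). The 1 called lower became 0 without the filter, and 2 with a filter at 1 FPKM, under scaling by total reads, by limma-voom and without male 5 and female 2. It became 0 to 4 with 1 library left out (4 without female 2, Fos, Ptger3, Rgs2 and Sik1, and 2 without male 3, Dusp1 and Sik1). With the replicate block it stayed at 1, Sik1 (adjusted p = 0.0414) in place of Ptger3 (0.105). Avpr2 relative to principal cell markers stayed short of the threshold throughout, with differences of 0.01 to 0.14 when 1 library was left out.

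Replicate numbers showed no sign of pairing the samples, since deviations of same-numbered libraries correlated at -0.10 to 0.07 over 5 pairs, against -0.13 to 0.12 over the 20 other pairs. The litters of the rats were not part of this check. With the replicate block, 231 genes were called in all, against 424 without it and 504 by limma-voom. Over all alternatives the log2 fold change was 0.36 to 0.48 for Avpr2, 0.51 to 0.68 for Rapgef3 and -0.78 to -0.47 for Adcy3, and why their calls changed was not tested. Differences in rows with at most 3 reads in every library were not detectable, and p-values cover the spread between these 10 rats.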
